A study of Mus musculus with 9 samples.

Results

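Collagens of the heart's connective tissue, the collagen chaperone Serpinh1 and the modifying enzymes Lox and Plod2 were followed across 9 mouse hearts. The set was a list of 10 genes, chosen by name with earlier results of these data known. It held Col1a1, Col1a2, Col3a1, Col5a1, Col5a2, Col6a1, Col8a1, Serpinh1, Lox and Plod2. Its members were all probe sets (groups of short probes read as 1 value) whose only gene symbol in the platform annotation was on that list. This gave 16 probe sets for 9 of the 10 genes, out of 10833 probe sets and 8251 genes with 1 symbol; Plod2 had none by this rule. Both Lox probe sets fell below the filter on dim signals, which left 14 probe sets of 8 genes for testing.

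RNA came from both ventricles of female mice 3 months old, with 3 mice in each of 3 groups and an array for each mouse. The 9 mice shared a transgene that overexpresses the insulin-like growth factor 1 receptor (IGF1R). IGF1R-caPI3K mice also carried constitutively active PI3K (p110), IGF1R-dnPI3K mice dominant negative PI3K (p110), and IGF1R mice no second transgene. PI3K is a lipid kinase that relays the receptor's signal into the cell. Mice without the IGF1R transgene were not analysed here, so every difference is between hearts that carry it. The labels give neither the promoters of the transgenes nor the number of founder lines.

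Type I and type III collagen are the main fibrillar collagens of the heart and are made mostly by cardiac fibroblasts. Their chains are hydroxylated and folded into a triple helix in the endoplasmic reticulum, where Serpinh1 (also called HSP47) binds the helix and escorts it onward. After secretion the ends are cut off, the molecules assemble into fibrils and lysyl oxidase links them. Type V collagen joins type I in mixed fibrils and limits their width. Col6a1 and Col8a1 belong to type VI and type VIII collagen, which form microfilaments and networks rather than banded fibrils, so the listed collagens are not all fibrillar.

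Bases upstream of the start of Col1a2 and Col3a1 are shown because both genes encode major fibrillar chains that are described together below. The windows are the 250 bases before the RefSeq transcription start (GRCm38.p6), at chr6:4505368-4505617 on the + strand for Col1a2 and chr1:45311288-45311537 on the + strand for Col3a1. Capitals mark matches on either strand. CCAAT is the core of the CCAAT box and GGGCGG that of the GC box bound by Sp1. TATAAA is the core sequence of the TATA box, which a match alone does not show to be one, and CAGACA a motif that SMAD proteins can bind.
Col1a2: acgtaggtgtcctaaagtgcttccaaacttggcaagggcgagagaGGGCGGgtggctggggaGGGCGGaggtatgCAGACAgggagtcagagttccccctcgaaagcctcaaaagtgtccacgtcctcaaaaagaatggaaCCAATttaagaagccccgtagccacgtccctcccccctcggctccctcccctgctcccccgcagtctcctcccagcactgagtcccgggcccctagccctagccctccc
Col3a1: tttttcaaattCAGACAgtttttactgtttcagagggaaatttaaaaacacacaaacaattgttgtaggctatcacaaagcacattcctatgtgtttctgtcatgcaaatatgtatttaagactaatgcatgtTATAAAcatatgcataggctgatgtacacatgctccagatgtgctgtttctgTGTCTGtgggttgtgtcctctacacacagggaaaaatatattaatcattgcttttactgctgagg
The Col1a2 window was 62.0% G or C and held 1 CCAAT, beginning 109 bases before the start, 2 GGGCGG and 1 CAGACA. The Col3a1 window was 35.2% G or C and held 1 TATAAA, beginning 117 bases before the start, and 2 CAGACA, with no match to the other motifs. None of these matches overlapped another. Among 32851 mouse promoter windows of the same length, 33.8% held CCAAT, 32.7% GGGCGG, 12.4% TATAAA and 17.1% CAGACA. The RefSeq table held windows for 6 of the 10 genes; Col1a1 and Col5a2 are named only. The 6 windows, which also cover Col5a1, Col6a1, Col8a1 and Serpinh1, shared no motif among the 4 searched, since the Col6a1 window held none of them. These matches are descriptions of sequence and measure no binding.

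The arrays had median signals of 160.6 to 196.7 and some technical readings ran with the groups. The 3' to 5' ratio of Gapdh, a sign of RNA integrity, was 0.843 to 0.873 on IGF1R-caPI3K arrays, 0.844 to 0.943 on IGF1R-dnPI3K arrays and 0.747 to 0.818 on IGF1R arrays. That of the added CreX control was 1.74 to 1.89, 1.79 to 1.83 and 1.05 to 1.26 in the same order of groups. IGF1R-dnPI3K replicate 3 stood apart, with a mean correlation to the other arrays of 0.927 against 0.947 to 0.956. For pyruvate carboxylase the 3' to 5' signal ratio was 3.25 on that array and 1.40 to 2.11 on the other 8. The Actb ratio did not follow the Gapdh order, at 1.01 to 1.04 on IGF1R-caPI3K, 1.089 to 1.147 on IGF1R-dnPI3K and 1.04 to 1.24 on IGF1R arrays. The part of these readings in the results was not tested. Igf1r itself had signals of 1138 ± 182 in IGF1R-caPI3K mice, 1772 ± 178 in IGF1R-dnPI3K mice and 903 ± 72.3 in IGF1R mice (SD, n = 3 each); the labels do not say whether its probe set reads the transgene. Cardiomyocyte markers, which check the labelled tissue, summed to 152995 to 161131 in IGF1R-caPI3K mice, 167263 to 211714 in IGF1R-dnPI3K mice and 136881 to 148144 in IGF1R mice over 8 genes.

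Collagen and Serpinh1 signals were lower in IGF1R-dnPI3K hearts than in IGF1R hearts. Of the 14 probe sets, 10 passed as lower and none as higher (limma, adjusted p at or under 0.05 over all 7898 probe sets). Over all probe sets the corresponding shares were 7.80% lower and 5.70% higher. Because the genes were listed with earlier results of these data known, the contrast with all probe sets is a description. Each of the 8 tested genes had at least 1 probe set that passed; read from the brightest probe set alone, 5 of 8 genes passed, and Col1a2, Col5a1 and Col6a1 did not. The median log2 fold change of the 14 was -1.11, against -0.09 over all probe sets, and 13 of the 14 were below 0, against 59.0% of all. In IGF1R-caPI3K hearts none of the 14 passed against IGF1R hearts, and their median was 0.01, against -0.04 over all probe sets. Against IGF1R-dnPI3K hearts, IGF1R-caPI3K hearts were higher at 4 probe sets, with a median of 0.99 against 0.05. The comparisons share groups, so they are not independent of each other. The 10 calls became 0 without any 1 IGF1R mouse and 0 with a term for the mouse number series. They also became 0 with only the 2 groups compared in the fit. In these fits 13 of the 14 stayed below 0.

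**Figure D1:**
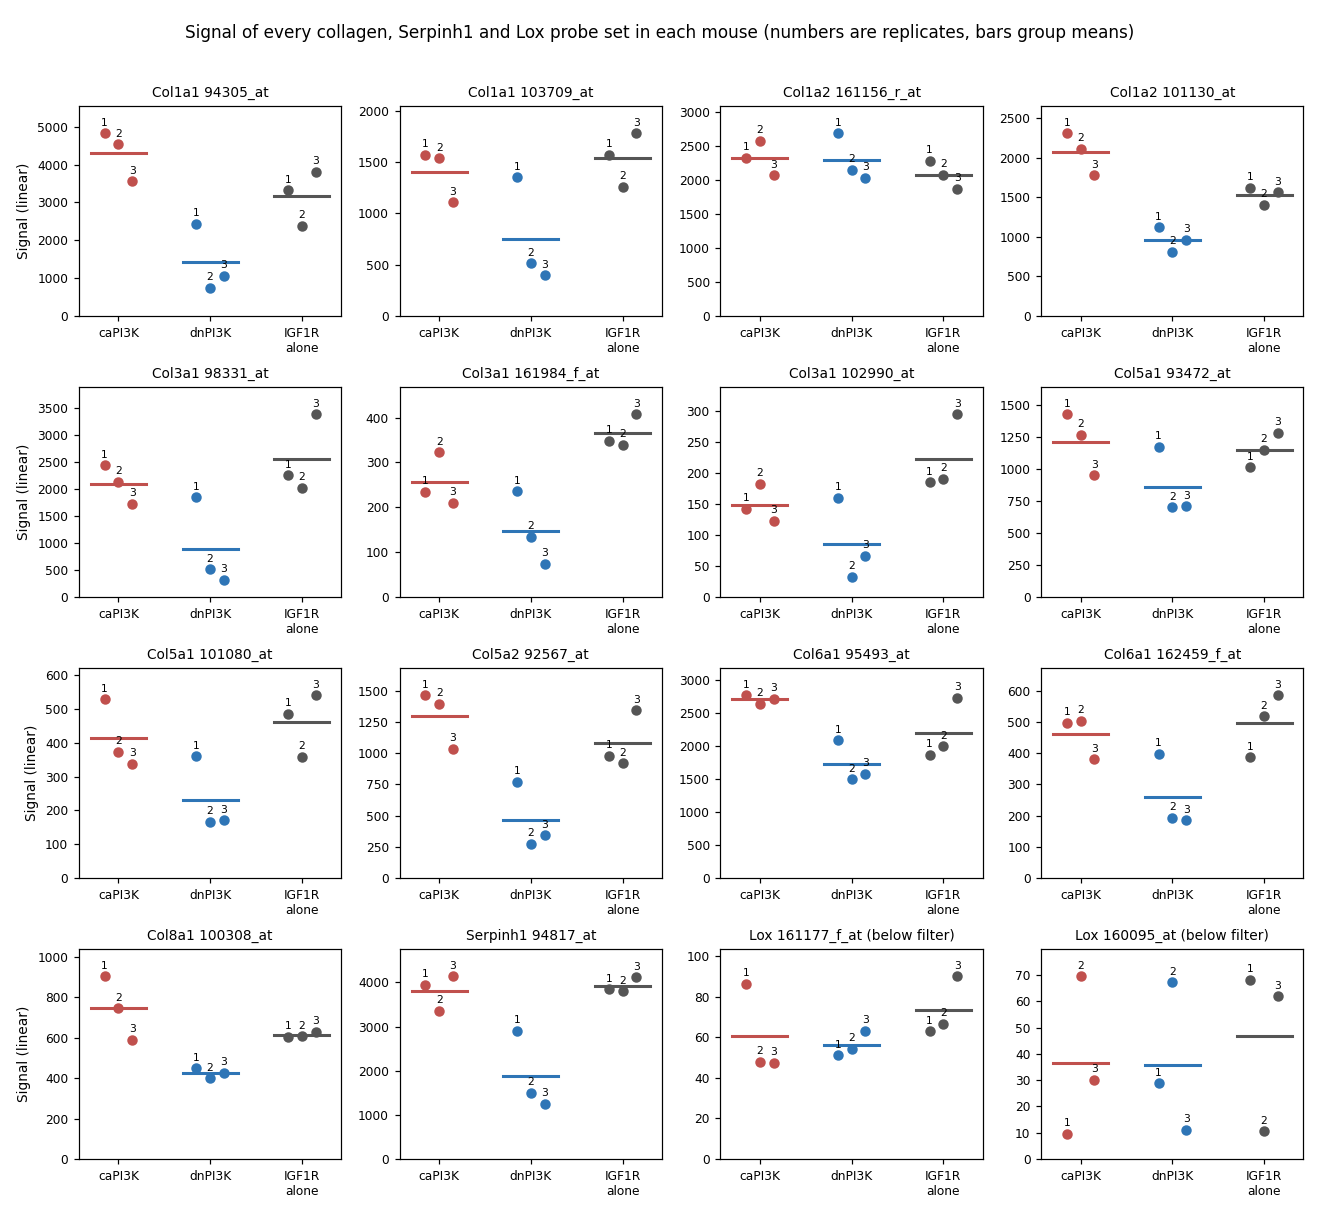
Deposited signal (linear scale, each panel with its own axis from 0) of the 16 probe sets in each mouse, with IGF1R-caPI3K, IGF1R-dnPI3K and IGF1R (written "IGF1R alone") from left to right; points are mice, numbered by replicate, and bars are group means of 3. In most collagen panels IGF1R-dnPI3K replicates 2 and 3 lie low and replicate 1 lies nearer the other groups, as for Col1a1 94305_at with 2435, 738 and 1062.

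Col1a1 and Col1a2 encode the chains of type I collagen, the most abundant fibrillar collagen. On 94305_at, the brighter Col1a1 probe set, signals were 4825, 4538 and 3557 in IGF1R-caPI3K mice, 2435, 738 and 1062 in IGF1R-dnPI3K mice and 3323, 2374 and 3807 in IGF1R mice. Every IGF1R-caPI3K mouse was above every IGF1R-dnPI3K mouse, while the lowest IGF1R mouse was slightly under the highest IGF1R-dnPI3K mouse. Relative to IGF1R mice, IGF1R-dnPI3K mice had log2 Col1a1 signals that fell by 1.33 ± 0.35 (SE, adjusted p = 0.0358 from limma), a mean signal 0.446 of that in IGF1R mice. It was higher in IGF1R-caPI3K than in IGF1R-dnPI3K mice by 1.78 ± 0.35 (adjusted p = 0.0387), and its difference between IGF1R-caPI3K and IGF1R mice was 0.46 ± 0.35 (adjusted p = 0.522). The dimmer Col1a1 probe set, 103709_at, read 1570, 1537 and 1106 in IGF1R-caPI3K mice, 1352, 512 and 394 in IGF1R-dnPI3K mice and 1570, 1258 and 1780 in IGF1R mice. IGF1R-dnPI3K replicate 1 lay within the range of both other groups here. Its log2 fold change in IGF1R-dnPI3K over IGF1R mice was -1.23 ± 0.37 (SE), which narrowly missed the threshold (adjusted p = 0.0501 from limma).

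The Col1a2 probe sets disagreed. On 101130_at, signals were 2306, 2112 and 1776 in IGF1R-caPI3K mice, 1119, 812 and 958 in IGF1R-dnPI3K mice and 1616, 1403.2 and 1563 in IGF1R mice. The 3 groups did not overlap: every IGF1R-caPI3K mouse was highest and every IGF1R-dnPI3K mouse lowest. Col1a2 on this probe set fell by 0.68 ± 0.15 in log2 units in IGF1R-dnPI3K over IGF1R mice (SE, adjusted p = 0.0189 from limma). It was higher by 1.10 ± 0.15 in IGF1R-caPI3K than in IGF1R-dnPI3K mice (adjusted p = 0.00936), the lowest adjusted p among the 14 in that comparison. Its difference of 0.43 ± 0.15 between IGF1R-caPI3K and IGF1R mice did not pass (adjusted p = 0.164) although the groups did not overlap. On 161156_r_at, whose name marks probes chosen under relaxed rules, signals were 2324, 2572 and 2064 in IGF1R-caPI3K mice, 2682, 2149 and 2032 in IGF1R-dnPI3K mice and 2276, 2069 and 1866 in IGF1R mice. All 3 groups overlapped on it. Its log2 fold change was 0.14 ± 0.14 in IGF1R-dnPI3K over IGF1R mice (SE, adjusted p = 0.518), the only value above 0 among the 14. Which of the probe sets reads Col1a2 more faithfully was not tested.

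Col3a1 encodes the chain of type III collagen, which forms finer fibrils alongside type I. On its brightest probe set, 98331_at, signals were 2437, 2131 and 1728 in IGF1R-caPI3K mice, 1845, 514 and 314 in IGF1R-dnPI3K mice and 2257, 2025 and 3384 in IGF1R mice. All IGF1R-dnPI3K mice were below all IGF1R mice, with replicate 1 close to the lowest of them. Col3a1 fell by 1.90 ± 0.50 in log2 units (SE, adjusted p = 0.0338 from limma), which left the mean at 0.349 of the IGF1R mean. Signals on 161984_f_at were 234, 322 and 210 in IGF1R-caPI3K mice, 236, 134 and 73.9 in IGF1R-dnPI3K mice and 349, 339 and 407 in IGF1R mice. Those on 102990_at were 142, 183 and 123 in IGF1R-caPI3K mice, 160, 32.5 and 66.6 in IGF1R-dnPI3K mice and 186, 191 and 295 in IGF1R mice. On both dimmer probe sets the IGF1R-caPI3K mice also lay below every IGF1R mouse, unlike on the brightest. Col3a1 also passed on them in IGF1R-dnPI3K over IGF1R mice, at -1.46 ± 0.35 (adjusted p = 0.0263) and -1.64 ± 0.48 (adjusted p = 0.0471). Between IGF1R-caPI3K and IGF1R mice the 3 probe sets differed by -0.26 ± 0.50, -0.53 ± 0.35 and -0.57 ± 0.48, and none passed (adjusted p = 0.814, 0.447 and 0.558). Col3a1 did not pass in IGF1R-caPI3K over IGF1R-dnPI3K mice either, where its brightest probe set differed by 1.64 ± 0.50 (adjusted p = 0.162). On 102990_at, IGF1R-dnPI3K replicate 2 read next to the floor of 32.4, below which values have no order.

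Col5a1 and Col5a2 encode chains of type V collagen, which nucleates type I fibrils. Col5a2 had 1 probe set, with signals of 1462, 1393 and 1034 in IGF1R-caPI3K mice, 771, 275 and 341 in IGF1R-dnPI3K mice and 977, 919 and 1343 in IGF1R mice. No IGF1R-dnPI3K mouse reached the lowest mouse of either other group. Col5a2 fell by 1.35 ± 0.33 in log2 units in IGF1R-dnPI3K over IGF1R mice (SE, adjusted p = 0.0263 from limma) and was higher by 1.62 ± 0.33 in IGF1R-caPI3K than in IGF1R-dnPI3K mice (adjusted p = 0.041). In the RefSeq gene table Col5a2 and Col3a1 are neighbours on mouse chromosome 1, and both were lowest in IGF1R-dnPI3K replicates 2 and 3. Col5a1 differed by less. On 93472_at it read 1429, 1268 and 951 in IGF1R-caPI3K mice, 1177, 700 and 710 in IGF1R-dnPI3K mice and 1015, 1151 and 1283 in IGF1R mice. IGF1R-dnPI3K replicate 1 lay inside the IGF1R range there, and the log2 fold change of -0.45 ± 0.22 did not pass (adjusted p = 0.176). On the dimmer 101080_at it read 530, 374 and 339 in IGF1R-caPI3K mice, 360, 166 and 170 in IGF1R-dnPI3K mice and 487, 358 and 541 in IGF1R mice. Replicate 1 again overlapped the IGF1R mice, by a narrow margin, and Col5a1 fell on this probe set by 1.07 ± 0.30 (adjusted p = 0.0417).

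Col6a1 encodes a chain of type VI collagen, which forms beaded microfilaments around cells, and Col8a1 a chain of type VIII collagen, a short-chain collagen of vessel walls. The brighter Col6a1 probe set, 95493_at, read 2767, 2645 and 2714 in IGF1R-caPI3K mice, 2089, 1494 and 1582 in IGF1R-dnPI3K mice and 1872, 1998 and 2730 in IGF1R mice. IGF1R-dnPI3K and IGF1R mice overlapped, and the log2 fold change of -0.35 ± 0.16 did not pass (SE, adjusted p = 0.168 from limma). The dimmer 162459_f_at read 498, 503 and 381 in IGF1R-caPI3K mice, 398, 193 and 184 in IGF1R-dnPI3K mice and 386, 518 and 585 in IGF1R mice, with replicate 1 of the IGF1R-dnPI3K mice above the lowest IGF1R mouse. Col6a1 fell on it by 1.02 ± 0.28 (adjusted p = 0.0406). Col8a1 lay close together within the IGF1R-dnPI3K and IGF1R groups, at 903, 745 and 591 in IGF1R-caPI3K mice, 448, 399 and 427 in IGF1R-dnPI3K mice and 605, 607 and 628 in IGF1R mice. Here IGF1R-dnPI3K replicate 1 stood with the others of its group, and no mouse of that group overlapped the rest. Col8a1 fell by 0.53 ± 0.15 in IGF1R-dnPI3K over IGF1R mice (adjusted p = 0.0454) and was higher by 0.79 ± 0.15 in IGF1R-caPI3K than in IGF1R-dnPI3K mice (adjusted p = 0.037).

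Serpinh1, the chaperone that binds procollagen, had signals of 3937, 3354 and 4132 in IGF1R-caPI3K mice, 2906, 1494 and 1248 in IGF1R-dnPI3K mice and 3845, 3793 and 4115 in IGF1R mice. IGF1R-caPI3K and IGF1R mice overlapped, and all IGF1R-dnPI3K mice were below both. Serpinh1 fell by 1.16 ± 0.25 in log2 units in IGF1R-dnPI3K over IGF1R mice (SE, adjusted p = 0.0189 from limma), to a mean 0.481 of that in IGF1R mice. In IGF1R-caPI3K over IGF1R-dnPI3K mice it was at 1.11 ± 0.25, short of the threshold (adjusted p = 0.0624), although those groups did not overlap. Lox, which encodes the lysyl oxidase that starts cross-linking, was dim on both probe sets. On 161177_f_at it spanned 47.4 to 90.0 and on 160095_at 9.7 to 69.4 over the 9 arrays, below the filter on every array, so no difference in Lox was detectable here.

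**Figure D2:**
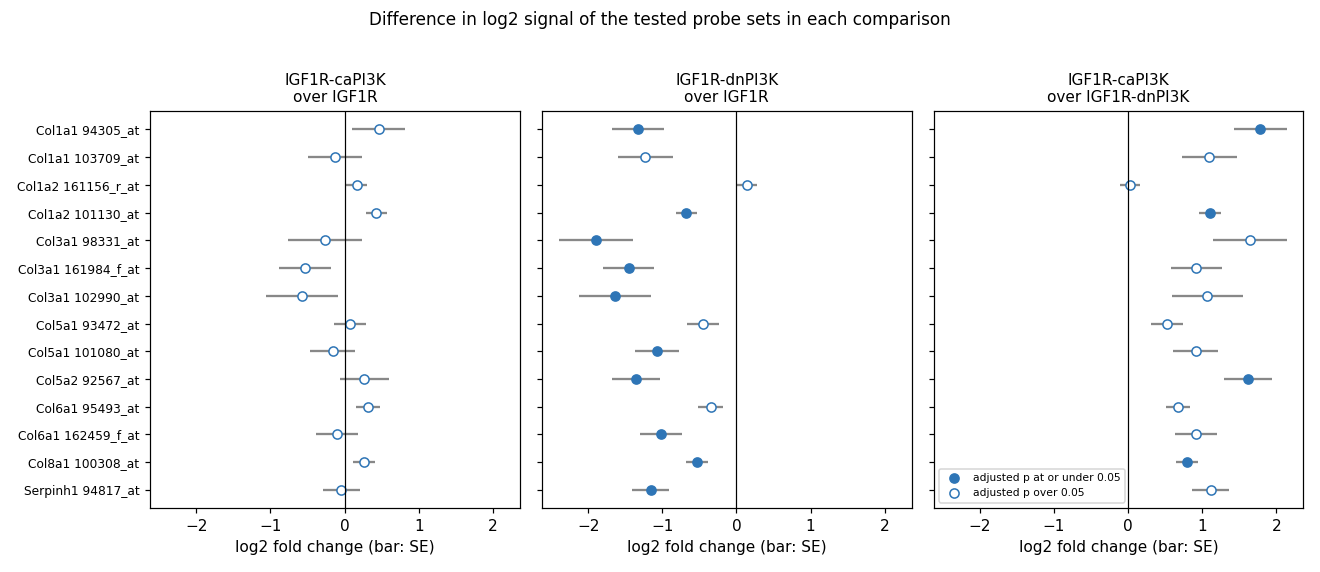
Log2 fold change (x axis) of the 14 tested probe sets (y axis) in IGF1R-caPI3K over IGF1R, IGF1R-dnPI3K over IGF1R and IGF1R-caPI3K over IGF1R-dnPI3K; points are limma estimates, bars are 1 SE and filled points have an adjusted p at or under 0.05. In the middle panel 13 of 14 points lie left of 0 and 10 are filled; in the left panel none is filled, and in the right panel 4 are.

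The overlap between groups was counted as well. All 3 IGF1R-dnPI3K mice were below all 3 IGF1R mice at 7 of the 14 probe sets, covering 5 genes (Col1a2, Col3a1, Col5a2, Col8a1 and Serpinh1), against 20.8% of all probe sets. Between IGF1R-caPI3K and IGF1R mice, 1 probe set was higher in every IGF1R-caPI3K mouse (Col1a2) and 2 were lower (both Col3a1), where 14.0% and 18.8% of all probe sets did so; no share of the 14 was above these. That comparison passed few probe sets at all, 0.215% of those tested, and 1 of the 14 had an unadjusted p under 0.05, a smaller share than the 18.4% of all probe sets. IGF1R-caPI3K mice lay above all IGF1R-dnPI3K mice at 6 probe sets, those of Col1a1, Col1a2, Col5a2, Col6a1, Col8a1 and Serpinh1, against 10.9% of all. The 4 that passed in that comparison were those of Col1a1, Col1a2, Col5a2 and Col8a1, where 0.734% of all probe sets passed as higher and 0.506% as lower. Of the 14, 12 were above the filter on all 9 arrays; the dimmer Col3a1 probe sets, 161984_f_at and 102990_at, were not, and could enter the test through the groups in which they were bright.

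The shift was uneven within the IGF1R-dnPI3K group. Relative to the mean log2 signal of IGF1R mice, the median of the 14 probe sets was -0.39 in IGF1R-dnPI3K replicate 1, -1.42 in replicate 2 and -1.48 in replicate 3. In IGF1R-caPI3K mice it was 0.20, 0.09 and -0.16, and in IGF1R mice -0.04, -0.12 and 0.24. Medians over all probe sets stayed between -0.14 and 0.01 on the 9 arrays. Replicate 1 was therefore nearer the IGF1R mice than the other IGF1R-dnPI3K mice were, and still below the lowest of them in its median.

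**Figure D3:**
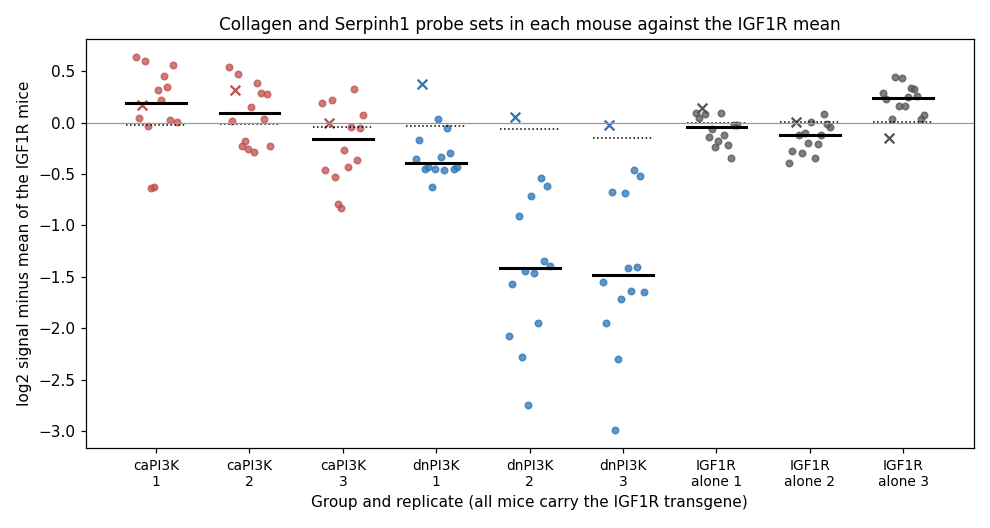
Log2 signal of each of the 14 probe sets minus its mean in the 3 IGF1R mice (y axis) in each mouse (x axis), with IGF1R-caPI3K, IGF1R-dnPI3K and IGF1R from left to right; points are probe sets, crosses mark Col1a2 161156_r_at, black bars are medians of the 14 and dotted lines are medians over all probe sets. The bars stand at -0.39, -1.42 and -1.48 in the IGF1R-dnPI3K mice and between -0.16 and 0.24 in the other 6.

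The mouse numbers in the sample titles ran with this spread. They fall into 3 number series: series 10 holds 1 mouse of each group (replicate 1 of IGF1R-caPI3K, replicate 1 of IGF1R-dnPI3K and replicate 3 of IGF1R), series 14 the other IGF1R-caPI3K and IGF1R mice, and series 31 the other IGF1R-dnPI3K mice. The labels do not say what a series is. The mouse of series 10 had the highest signal of its group at 9 of 14 probe sets in IGF1R-caPI3K, 14 of 14 in IGF1R-dnPI3K and 12 of 14 in IGF1R mice, against 33.0%, 41.0% and 32.3% of all probe sets. Within series 10, the IGF1R-dnPI3K mouse was below the IGF1R mouse at 13 of 14 probe sets (53.9% of all) and the IGF1R-caPI3K mouse below the IGF1R-dnPI3K mouse at 3 of 14 (51.6% of all). With 1 mouse a group there, these are values without a test. With the series as a term in the fit, none of the 14 passed in any comparison, with unadjusted p under 0.05 at 7 in IGF1R-dnPI3K over IGF1R (951 of all 7898 probe sets) and at 6 in IGF1R-caPI3K over IGF1R-dnPI3K (519 of 7898). The median log2 fold change of IGF1R-dnPI3K over IGF1R was then -0.57, with Col1a1 94305_at at -0.59, Col3a1 98331_at at -0.77, Col5a2 at -0.73, Col8a1 at -0.62 and Serpinh1 at -0.49. Since series 31 holds IGF1R-dnPI3K mice only, the IGF1R-dnPI3K side of these values rests on its series 10 mouse, while the IGF1R side also draws on series 14 mice.

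The calls also depended on which arrays were in the fit. The 10 calls in IGF1R-dnPI3K over IGF1R became 0 without any 1 of the 3 IGF1R mice, 3 without IGF1R-dnPI3K replicate 2 or 3, and 5, 4 and 6 without IGF1R-caPI3K replicate 1, 2 and 3; without IGF1R-dnPI3K replicate 1 they became 13. In each of these fits 11 to 13 of the 14 had an unadjusted p under 0.05, against 25.4% to 38.7% of all probe sets, and the median log2 fold change ran from -1.48 to -0.88. The 4 calls in IGF1R-caPI3K over IGF1R-dnPI3K became 1 without any 1 IGF1R mouse or without IGF1R-dnPI3K replicate 2 or 3, 0 without IGF1R-caPI3K replicate 1 or 2, 2 without replicate 3, and 13 without IGF1R-dnPI3K replicate 1. Calls over all probe sets moved as well. The 98 became 10, 10 and 22 without IGF1R-caPI3K replicate 1, 2 and 3, and 537 without IGF1R-dnPI3K replicate 1. With only the 2 groups compared in the fit, neither comparison passed any of the 14. In each, 11 had an unadjusted p under 0.05. The shares of all probe sets were 27.6% in IGF1R-dnPI3K over IGF1R and 12.2% in IGF1R-caPI3K over IGF1R-dnPI3K. Calls over all probe sets went from 1066 to 132 and from 98 to 13 in these comparisons. In IGF1R-caPI3K over IGF1R they went from 17 to 699. The median SD of log2 signal was 0.261 in IGF1R-dnPI3K, 0.156 in IGF1R-caPI3K and 0.164 in IGF1R mice. The main fit pools this spread, so its p-values for IGF1R-dnPI3K over IGF1R also drew on the less variable IGF1R-caPI3K mice. The part of this in the calls was not tested.

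**Figure D4:**
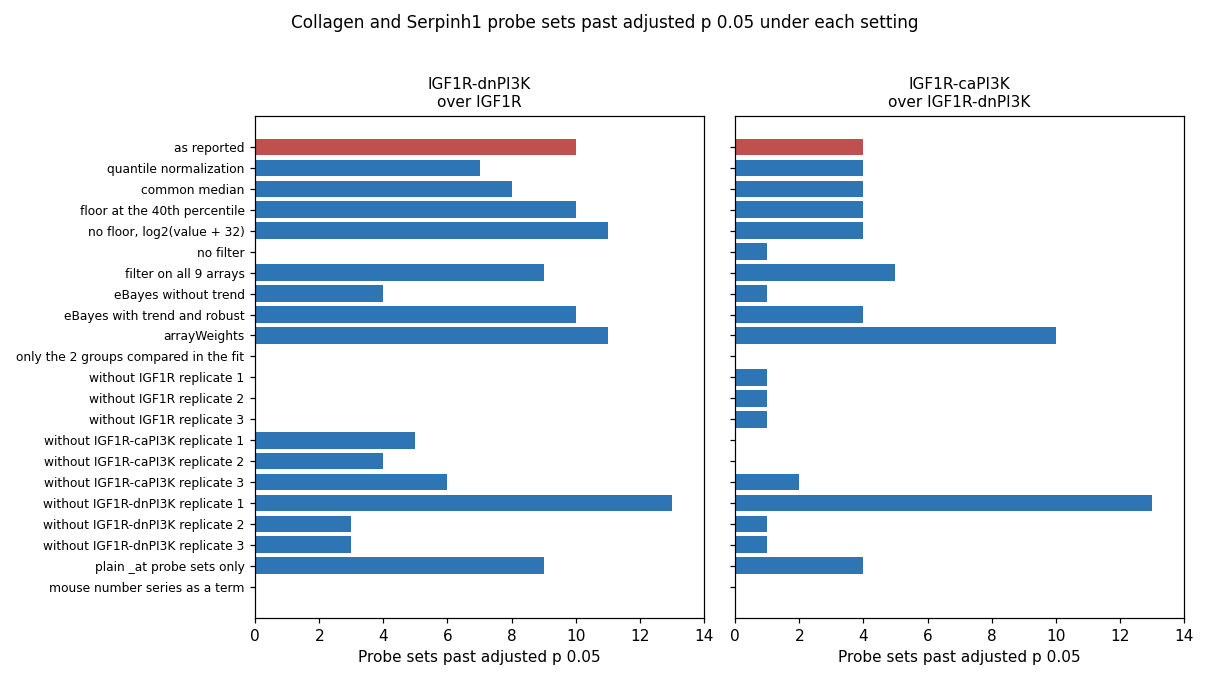
Number of collagen and Serpinh1 probe sets past an adjusted p of 0.05 (x axis, from 0) under each setting of the analysis (y axis) in IGF1R-dnPI3K over IGF1R (left) and IGF1R-caPI3K over IGF1R-dnPI3K (right); the red bar is the setting reported in the text. The counts ran from 0 to 13 around 10 on the left and from 0 to 13 around 4 on the right, with the highest count in both panels without IGF1R-dnPI3K replicate 1.

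Across the 9 mice most of the probe sets were correlated, Col1a2 161156_r_at only weakly. The 78 pairs among the other 13 had Pearson correlations of log2 signal from 0.62 to 0.99, with a median of 0.88, and the 13 pairs with 161156_r_at from 0.07 to 0.32. After subtracting group means, the 78 pairs had a median of 0.78 and the 13 pairs with 161156_r_at a median of 0.59 (0.08 to 0.73), so this probe set stood apart less within groups than over all 9 mice. All pairs share the same arrays and scaling, and pairs of 1 gene share a transcript, so these are descriptions. Ranked by likeness to Col1a1 94305_at among 5941 genes, each read from its brightest probe set, Col5a2 came first at a correlation of 0.99 over the 9 mice. The other tested genes of the list ranked lower, Serpinh1 at 41, Col6a1 at 44, Col3a1 at 53, Col5a1 at 61 and Col8a1 at 75. Col1a2, read from 161156_r_at, ranked 2552. The 5 most similar genes outside the list were Col6a2 (0.98), another chain of type VI collagen, Kdelr3 (0.96), a receptor that returns proteins to the endoplasmic reticulum, the kinase Wnk1 (0.96), the lipid acyltransferase Agpat5 (0.96) and Sparc (0.95), a collagen-binding matrix protein. Within groups their correlations were 0.94, 0.95, 0.88, 0.94 and 0.95.

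Other genes of the collagen pathway were read from lists also drawn up with earlier results known, 1 brightest probe set per gene. Over all probe sets, 7.80% passed as lower and 5.70% as higher in IGF1R-dnPI3K over IGF1R mice. Among 13 collagen-modifying enzymes and chaperones, 5 passed as lower and 1 as higher in IGF1R-dnPI3K over IGF1R mice, with a list median of -0.08. P4ha1, a prolyl hydroxylase subunit whose product stabilises the triple helix, averaged 1150 ± 179 in IGF1R-caPI3K mice, 509 ± 132 in IGF1R-dnPI3K mice and 846 ± 102 in IGF1R mice (SD, n = 3 each). It fell by 0.76 ± 0.19 in log2 units in IGF1R-dnPI3K over IGF1R mice (SE, adjusted p = 0.0299 from limma) and was higher by 1.19 ± 0.19 in IGF1R-caPI3K than in IGF1R-dnPI3K mice (adjusted p = 0.0179). P4ha2, the related subunit, fell by 0.57 ± 0.13 (adjusted p = 0.0204) and differed by 0.76 in the second comparison (adjusted p = 0.0203). The prolyl isomerase Fkbp9 fell by 0.60, the disulfide isomerase Pdia3 fell by 1.49 and Mia3, which loads procollagen into transport carriers, fell by 0.65 in IGF1R-dnPI3K over IGF1R mice. P4hb, the other prolyl hydroxylase subunit, passed as higher by 1.12 ± 0.31 on 161926_r_at, while its other probe set was at -0.25, so its probe sets disagreed. Plod3, a lysyl hydroxylase, passed as lower on a dimmer probe set (-1.09) and was at 0.18 on its brightest. In IGF1R-caPI3K over IGF1R mice Mia3 was at -0.66, Pdia3 at -0.88, Fkbp9 at -0.21 and P4hb 161926_r_at at 1.16. The dimmer Plod3 probe set was at -0.66 there, its brightest at 0.62, P4ha1 at 0.44 and P4ha2 at 0.19. None of these passed, so for Mia3, Pdia3 and P4hb 161926_r_at both PI3K groups lay on the same side of IGF1R mice.

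Among 6 genes of procollagen processing and cross-linking, only Sparc passed, where 7.80% of all probe sets passed as lower. It fell by 1.10 ± 0.26 in IGF1R-dnPI3K over IGF1R mice (SE, adjusted p = 0.0249 from limma), with a list median of -0.43. Of 12 other collagen chains tested out of 22 with a probe set, Col4a1 of the basement membrane fell by 0.77 ± 0.22 (adjusted p = 0.0436) and Col6a3 of type VI collagen fell by 0.92 ± 0.26 (adjusted p = 0.0409), with a list median of -0.38. Among 8 proteoglycans and glycoproteins that bind fibrils, the median was 0.01 and 2 passed. Lum (lumican) averaged 4114 ± 99.3 in IGF1R-caPI3K mice, 2101 ± 743 in IGF1R-dnPI3K mice and 4508 ± 494 in IGF1R mice (SD, n = 3 each), at a log2 fold change of -1.16 ± 0.21 against IGF1R mice (adjusted p = 0.0143). Postn (periostin) averaged 3530 ± 537 in IGF1R-caPI3K mice, 1047 ± 815 in IGF1R-dnPI3K mice and 3061 ± 470 in IGF1R mice, at a log2 fold change of -1.80 ± 0.39 against IGF1R mice (adjusted p = 0.0192). Both were also higher in IGF1R-caPI3K than in IGF1R-dnPI3K mice, Lum by 1.03 (adjusted p = 0.0444) and Postn by 2.01 (adjusted p = 0.037).

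On the side of collagen breakdown, 1 of 9 genes passed as higher and 1 as lower. These counts are near the shares over all probe sets, 5.70% higher and 7.80% lower. Ctsl, a lysosomal protease, rose by 0.89 ± 0.15 in IGF1R-dnPI3K over IGF1R mice (SE, adjusted p = 0.0113 from limma), and Fap, a fibroblast surface protease, fell by 1.00 ± 0.29 (adjusted p = 0.0451). Ctsb passed as lower on a dimmer probe set (-0.90) and was at 0.04 on its brightest. None of 3 collagen receptors passed on its brightest probe set; the integrin chain Itgb1 passed on a dimmer one at -0.46, with -0.15 on its brightest. Among 13 genes of transforming growth factor beta signalling, which drives collagen transcription in fibroblasts, 1 passed as lower, near the share over all probe sets. It was Smad7, an inhibitor of that pathway, which fell by 1.05 ± 0.19 (adjusted p = 0.0143 from limma). The list median was -0.43. None of these collagen pathway lists held a gene that passed in IGF1R-caPI3K over IGF1R mice.

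**Figure D5:**
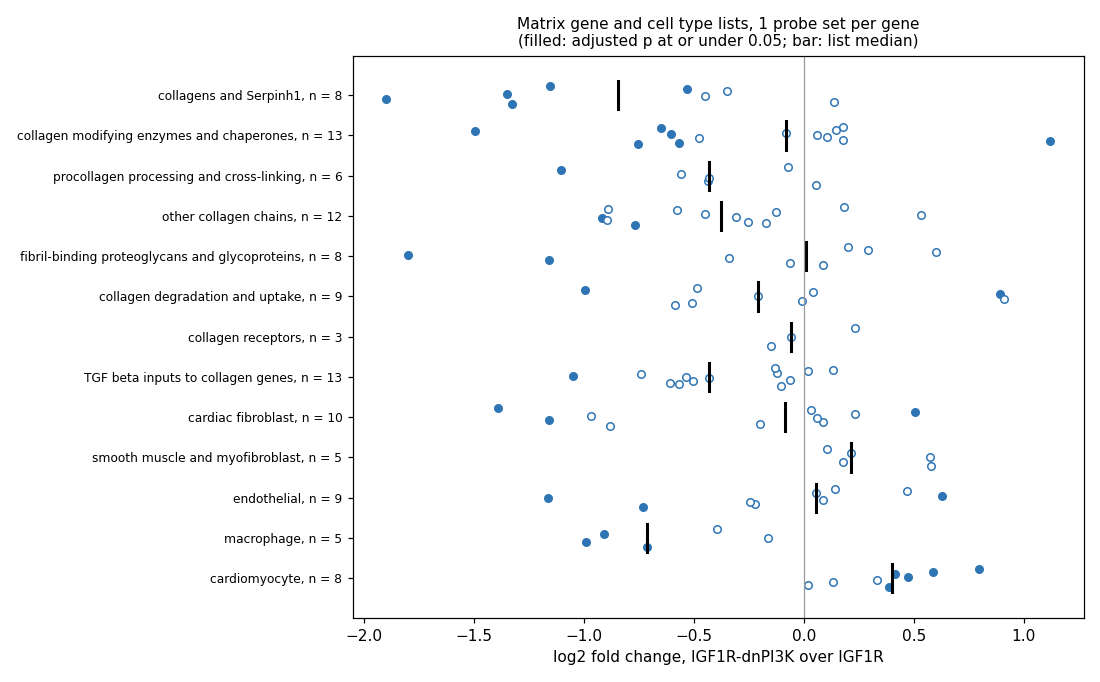
Log2 fold change of IGF1R-dnPI3K over IGF1R mice (x axis) for genes of each list (y axis), 1 brightest probe set per gene; filled points have an adjusted p at or under 0.05 and black bars are list medians. Most collagen and Serpinh1 points lie left of 0, while cardiac fibroblast markers lie on both sides around a median of -0.08 and cardiomyocyte markers lie right of 0 around 0.40.

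Markers of the cells in the ventricle are given beside these values, since in whole tissue fewer cells of a type and less RNA per cell cannot be told apart. For the counts in IGF1R-dnPI3K over IGF1R mice, the shares over all probe sets were 7.80% lower and 5.70% higher. Of 10 cardiac fibroblast markers, 2 passed as lower in IGF1R-dnPI3K over IGF1R mice (Lum and Mfap5, a microfibril protein, by 1.39 ± 0.25, SE, limma adjusted p = 0.0143) and 1 as higher (Gsn, the actin-severing gelsolin, by 0.50 ± 0.13, adjusted p = 0.0333). Their summed signal was 32045 to 36781 in IGF1R-caPI3K mice, 30684 to 36398 in IGF1R-dnPI3K mice and 32592 to 33843 in IGF1R mice. The 3 groups overlapped in this sum, and 5 of the 10 markers had log2 fold changes below 0 in IGF1R-dnPI3K over IGF1R mice. Most of the sum came from the brightest markers, Dcn and Gsn. These averaged 14007 and 11595 in IGF1R-dnPI3K mice and 13154 and 8112 in IGF1R mice, so falls of dimmer markers weigh little in it. Macrophage markers summed to 3704 to 4008, 2019 to 3083 and 3704 to 4114 in the same order of groups, and 3 of 5 tested, Csf1r, Lyz2 and Mrc1, fell in IGF1R-dnPI3K over IGF1R mice. The 9 endothelial markers summed to 9558 to 10961, 9826 to 12524 and 11067 to 12460. Of these, Pecam1 and Kdr fell and Vwf rose in IGF1R-dnPI3K over IGF1R mice. In IGF1R-caPI3K over IGF1R mice Pecam1 was at -0.57, Kdr at -0.90 and Vwf at 0.37, and none passed. In IGF1R-dnPI3K over IGF1R mice 5 of 8 cardiomyocyte markers rose (Myh6, Myl2, Myl3, Mybpc3 and Nppa). None of 5 smooth muscle and myofibroblast markers passed; the list summed to 3661 to 3694, 4331 to 5081 and 3644 to 3952. In the smaller lists, Cd79a of B cells fell in IGF1R-caPI3K mice against both other groups. Only 2 of 6 lymphocyte genes with a probe set were tested. Cd79b, also of B cells, lay below the filter and went the other way. It averaged 109 ± 13.1 in IGF1R-caPI3K, 74.6 ± 55.1 in IGF1R-dnPI3K and 27.4 ± 12.8 in IGF1R mice (SD). Chad, a cartilage matrix protein, rose against IGF1R mice in both PI3K groups, while no adipocyte or red blood cell marker passed in any comparison. No gene of these lists was at 0 on every array, and their part in the collagen values was not tested.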

How the data were processed

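Total RNA from both ventricles was hybridised to 1 array per mouse (9 mice). The authors deposited linear intensity values, 1 for each probe set of an array. On the values themselves, every array has the same 2% trimmed mean (algorithm and version: not given in the sources used here). Gene symbols came from the platform annotation: 1 symbol for 10833 probe sets, several for 396 and none for 1193. The 66 control probe sets were left out. Deposited intensities under 32.4, the 20th percentile of all values above 0, were set to it before taking log2, which touched 0.346% of the tested values. The 7898 probe sets above their array's 40th percentile on at least 3 arrays were fitted in limma 3.58.1 (R 4.3.3), all 9 arrays together, with a variance trend on mean signal (eBayes). Two-sided p-values were adjusted by Benjamini-Hochberg over all 7898, with a threshold of 0.05. They set the difference between group means against the spread between mice within groups, pooled over the 3 groups, and the number of arrays limits their precision. The fit was also run on simulated data, in which all 3 groups had the same spread and no mouse number series. The measured groups differed in spread, so that run does not test the calls under the conditions of these data.

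Groups came from the sample titles. Replicate numbers follow accession order and pair no mice; pairs of arrays shared the same value on 11 to 37 probe sets, so each array was counted once. Every probe set of a listed gene is named. Genes of the surrounding pathway are named where at least 1 of their probe sets passed, as are the 5 genes most like Col1a1 by Pearson correlation. Dcn and Cd79b are named beside other markers of their lists. The listed genes and all gene lists were chosen with earlier results of these data known. Alternatives covered scaling, floor, filter, variance model, array weights, the groups in the fit and each array left out; a term for the mouse number series and a restriction to plain probe sets were added after seeing the data. Promoter bases were read from a RefSeq table (GRCm38.p6). Mice lacking the IGF1R transgene were not analysed here.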

Additional observations from a re-analysis of the deposited data

How the results depend on the processing

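Of 289 alternative values of single collagen and Serpinh1 probe sets in IGF1R-dnPI3K over IGF1R, 180 kept direction and side of the threshold, 101 kept direction but no longer passed, 8 newly passed and 0 changed sign; the cause of lost calls was not tested. In IGF1R-caPI3K over IGF1R-dnPI3K, 5 of 289 changed sign, all Col1a2 161156_r_at (main value 0.02): -0.043 at a common median, -0.28 with the mouse number series as a term, and -0.055 to 0.14 with 1 array left out. In IGF1R-caPI3K over IGF1R, 8 of 289 near 0 changed sign: at a common median Col6a1 162459_f_at came to 0.0020 and Serpinh1 to 0.056, and with 1 array left out Col1a1 103709_at ran from -0.27 to 0.031, Col5a1 93472_at from -0.059 to 0.23, Col6a1 162459_f_at from -0.27 to 0.032 and Serpinh1 from -0.11 to 0.043. Scaling to a common median moved the median log2 fold change of all probe sets in IGF1R-dnPI3K over IGF1R to 0.08 instead of -0.09, and that of the 14 to -0.94.

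The 10 collagen and Serpinh1 calls in IGF1R-dnPI3K over IGF1R became 7 with quantile normalization, 8 at a common median, 4 without the variance trend and 0 with no filter (more probe sets tested; 11 at an unadjusted p under 0.05, against 22.9% of all), with only the 2 groups compared (11 unadjusted) or with the series term (7 unadjusted); with 1 array left out they ran from 0 to 13. The 4 calls in IGF1R-caPI3K over IGF1R-dnPI3K became 10 with array weights, 1 without the trend, 1 with no filter, 0 with only the 2 groups compared (11 unadjusted) and 0 with the series term (6 unadjusted), and 0 to 13 with 1 array left out. The 0 calls in IGF1R-caPI3K over IGF1R became 1 with array weights (Col1a2 101130_at, adjusted p = 0.0491, limma) and were 0 in every other setting run.

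Over all probe sets, the 17 calls in IGF1R-caPI3K over IGF1R became 78 with quantile normalization, 3 at a common median, 67 with the higher floor, 0 with no filter (1766 unadjusted, limma), 42 with the filter on all 9 arrays, 7 without the trend, 777 with array weights, 699 with only the 2 groups, 3 on plain probe sets, 1 with the series term, and 0 to 549 with 1 array left out. The 1066 in IGF1R-dnPI3K over IGF1R became 387 with no filter, 657 without the trend, 132 with only the 2 groups, 5 with the series term and 77 to 1856 with 1 array left out; 450 were higher and 616 lower, against 832 and 333 at a common median. The 98 in IGF1R-caPI3K over IGF1R-dnPI3K became 36 with no filter, 45 without the trend, 348 with array weights, 13 with only the 2 groups, 8 with the series term and 10 to 537 with 1 array left out. No paired analysis was possible because the labels give no replicate numbers; the mouse number series, which the groups share only in part, was fitted as a term instead. The number of arrays limits what could be detected.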
